A study of Homo sapiens with 18 samples.

Results

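The genes described here are 34 components and targets of the integrated stress response that the transcription factor ATF4 drives, measured in LNCaP cells, a human prostate adenocarcinoma line, by sequencing of polyadenylated RNA. They were taken by gene symbol from a list, and all 34 were found among the 20145 genes of the deposited table and passed the filter on low counts that left 15422 genes. The cells had been exposed for 72 h, in medium with serum, to DMSO vehicle, to 2-77 at 1 µM, to ACBI at 0.2 µM, to BD98 at 2 µM, to P-16 (written PB16 in the treatment text) at 10 µM or to ENZA (enzalutamide, an antiandrogen) at 10 µM, with 3 libraries per group and 18 in all. The series title speaks of inhibitors selective for BRD7, a bromodomain protein. Targets of the compounds other than ENZA are not named in the labels, and every group is this 1 line. Whether the libraries of a group are separate cultures is not stated, so a p here rests on the spread between libraries, which may be technical.

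The integrated stress response is a pathway in which kinases such as PERK, GCN2, HRI and PKR phosphorylate the translation initiation factor eIF2 when amino acids, heme or protein folding fail, or when a virus is sensed. General protein synthesis then slows while the mRNA of ATF4 is translated more, so that the amount of ATF4 protein need not follow its mRNA. ATF4 binds DNA as a dimer with C/EBP proteins at a composite element in the promoters of genes for amino acid uptake, amino acid synthesis, redox control and tRNA charging, and of genes that end the response. Cancer cells use the pathway to keep amino acid supply in step with growth.

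The DNA element that ATF4 and C/EBP dimers bind has the core TGATGNAA, and the promoters that carry it are shown for the members that have it. RefSeq promoter windows (build GRCh38.p14, 250 bases before to 50 bases after an annotated start, several starts for some genes) were found for 29 members. NUPR1, EIF4EBP1, SLC7A11, GPT2 and PYCR1 have no entry. The core, read on both strands, occurred in the windows of 10 of these 29 members (34.5%), against 2.75% of 11726 tested genes with a window and 4.46% of all 27305 genes in the table. Members had 1.59 windows per gene and tested genes 1.44. A match is a description of the letters and not of binding. The 30-base stretches below run 5′ to 3′ on the strand of the gene, with the core or its reverse complement TTNCATCA in capitals.
ASNS: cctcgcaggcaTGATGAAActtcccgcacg
CHAC1: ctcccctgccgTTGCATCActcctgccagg
SLC1A5: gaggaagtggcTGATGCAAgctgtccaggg
SLC1A4: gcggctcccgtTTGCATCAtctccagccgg
SLC7A1: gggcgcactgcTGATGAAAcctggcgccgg
SLC3A2: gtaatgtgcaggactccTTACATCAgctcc
CEBPG: cgcgcggcgtcTGATGCAAcctgccggcaa
JDP2: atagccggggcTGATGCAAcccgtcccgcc
ATF3: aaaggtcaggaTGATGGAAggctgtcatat
PPP1R15B: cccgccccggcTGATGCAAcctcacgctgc

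These lie at chr7:97872458-97872487 (minus strand), chr15:40953251-40953280 (plus), chr19:46784893-46784922 (minus), chr2:64989381-64989410 (plus), chr13:29595663-29595692 (minus), chr11:62881719-62881748 (plus), chr19:33374060-33374089 (plus), chr14:75427995-75428024 (plus), chr1:212565205-212565234 (plus) and chr1:204412026-204412055 (minus). Counted from the annotated start as +1, the core began 68 bases upstream in ASNS, 209 in CHAC1, 97 in SLC1A5, 42 in CEBPG and 16 in JDP2, and 191 in ATF3 and 227 in PPP1R15B. In SLC1A4 it spanned the start itself, and in SLC7A1 and SLC3A2 it began at +8 and +38. The start meant is that of the promoter window, which need not be the outer end of the deposited gene. The stretches of ASNS, SLC1A5, SLC1A4, SLC3A2, CEBPG and JDP2 lie inside the deposited spans of these genes. The span of ASNS, for example, is 97851677 to 97928441 and that of SLC3A2 62856109 to 62888860. With C in its variable position the core read TGATGCAA in 6 of the 10. The 250 bases upstream of CHAC1, the member with the greatest fall after BD98, at chr15:40953221-40953470 on the plus strand, are shown whole.
CHAC1 upstream: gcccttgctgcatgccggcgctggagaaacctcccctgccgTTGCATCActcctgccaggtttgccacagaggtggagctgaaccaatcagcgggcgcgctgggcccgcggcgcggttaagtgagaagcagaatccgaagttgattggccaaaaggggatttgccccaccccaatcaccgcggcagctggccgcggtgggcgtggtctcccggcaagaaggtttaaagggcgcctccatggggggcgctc

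Library totals ran from 16835113 to 36975052 counts. Levels are in CPM, counts scaled to library size with TMM factors, and a count of 1 was worth 0.0271 to 0.0582 CPM. The members' levels ran from 2.03 CPM (SLC7A5 with ACBI) to 913 CPM (ATF4 with DMSO), so no member was at the limit of detection. ACBI replicate 3 stood apart, with 8.6% of its counts in ribosomal RNA genes against 0.639% to 2.09% in the other 17 libraries. The numbers of members called higher and lower with ACBI, and the median against DMSO, are given with and without it. Values of single members include it. Marker lists moved with the groups. The summed level of 7 luminal prostate markers, led by KLK3, was 7871 to 7956 CPM in DMSO, 5654 to 5714 with P-16, 5616 to 5783 with BD98, 4199 to 4220.3 with ENZA, 4009.8 to 4299 with ACBI and 3720.4 to 3822 with 2-77. Endothelial markers, in effect VWF, reached 56.1 to 57.4 CPM with BD98, 20.9 to 23.05 in DMSO and 0.580 to 0.870 with ACBI. Fibroblast markers, led by COL1A1, were at 13.6 to 15.2 CPM in DMSO and 18.7 to 19.2 with 2-77. The basal marker KRT14 was at 1.11 to 2.10 CPM in DMSO and 0 to 0.0324 with 2-77, and immune markers reached at most 0.216 CPM. These lists were incomplete, as the deposited genes held 1 of 3 basal, 2 of 4 immune, 3 of 4 fibroblast and 2 of 3 endothelial markers. The part of the markers in the results was not tested. RNA came from whole cultures, so less RNA per cell and fewer cells that express a gene cannot be told apart.

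Most ATF4 genes were lower with every compound, by an amount that differed between compounds. A value with ± is a log2 fold change and its standard error (SE), above 0 if the group named first was higher, from edgeR's quasi-likelihood test with Benjamini-Hochberg adjustment over 15422 genes, and a call is an adjusted p under 0.05. With ACBI 31 of 34 members fell and 1 rose, where 72% of all genes tested were called (35.4% up and 36.6% down). After BD98 31 fell and 1 rose, against 49% called among all genes (24.5% up and 24.5% down). ENZA gave 31 falls and 1 rise, against 36.3% (18.2% up and 18.1% down), and 2-77 gave 30 falls and 1 rise, against 40.7% (20.5% up and 20.2% down). P-16 gave 20 falls and 3 rises, against 24% (12.4% up and 11.6% down). On leaving out single libraries the falls called with P-16 went down to between 15 and 17. These 5 comparisons share the DMSO libraries.

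The median member stood at -1.47 with ACBI, -1.32 with BD98, -0.57 with ENZA, -0.55 with 2-77 and -0.13 with P-16, while the median of all genes tested lay between -0.008 and 0.001 in these comparisons. TMM scaling draws the latter median toward 0. With library totals in place of TMM factors it was -0.049 with ACBI and 0.062 with BD98, and the median member stood at -1.51 and -1.26. Falls of at least 2-fold were called for 26 members with BD98, 23 with ACBI, 4 with 2-77, 2 with ENZA and 0 with P-16. Library by library, the median member's difference from the DMSO mean, in log2 of CPM plus 0.5, ran from -1.54 to -1.39 in ACBI, -1.34 to -1.28 in BD98, -0.61 to -0.58 in ENZA, -0.57 to -0.53 in 2-77 and -0.15 to -0.12 in P-16. Without ACBI replicate 3 the counts for ACBI were again 31 falls and 1 rise, with a median of -1.52.

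**Figure D1:**
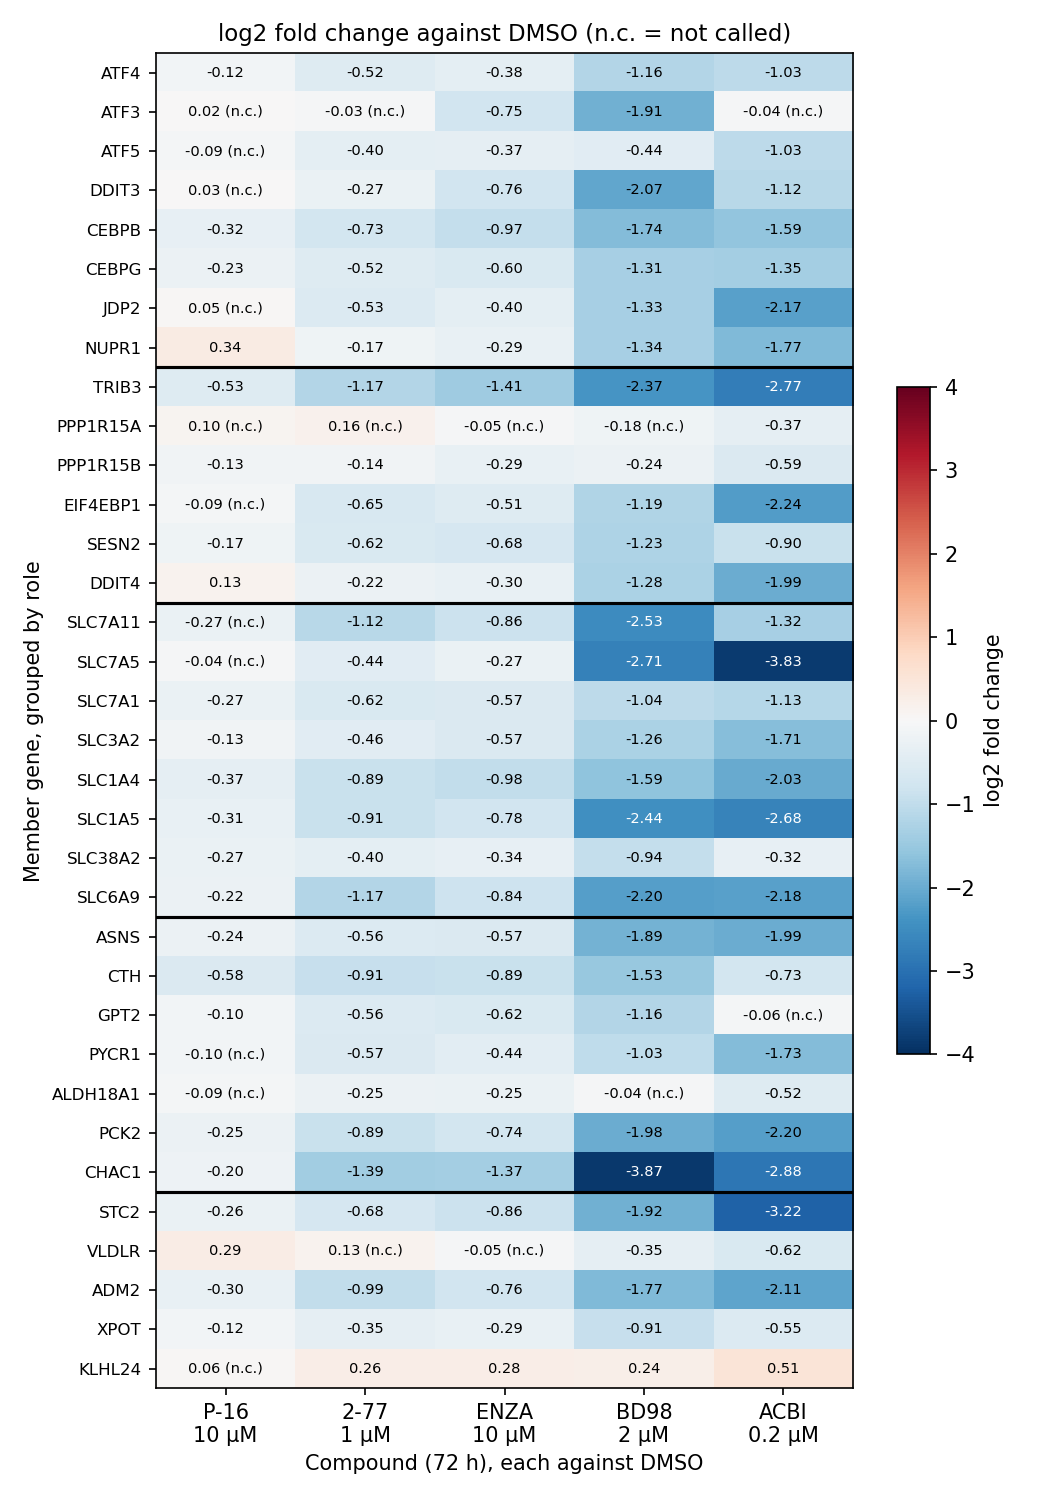
Heat map of the log2 fold change of each of the 34 members (rows, grouped by role with black lines) for each compound against DMSO (columns, with dose), n = 3 libraries per group; blue is lower, red higher, and n.c. marks a value that was not called. Most rows darken from P-16 over 2-77 and ENZA to BD98 and ACBI, and KLHL24 at the foot is the row that was called higher with 4 compounds.

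In 23 of 34 members all 15 libraries of treated cells lay below all 3 DMSO libraries, an arrangement seen in 6.45% of all genes tested. The reverse, all 15 above, held for 0 members and 4.9% of all genes. The 6 libraries of ACBI and BD98 lay below the other 12 in 24 members, against 5.63% of all genes. For 17 members, ATF4, CEBPB, CEBPG, TRIB3, SESN2, SLC7A1, SLC3A2, SLC1A4, SLC1A5, SLC6A9, ASNS, PYCR1, PCK2, CHAC1, STC2, ADM2 and XPOT, no library broke the order DMSO, then P-16, then 2-77 and ENZA together, then BD98 and ACBI together, against 0.597% of all genes. These arrangements were chosen after the values were seen and carry no test. The lowest mean was in ACBI for 21 members, in BD98 for 12 and in DMSO for KLHL24.

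Among the transcription factors, the mRNA of ATF4 itself fell with each compound. ATF4 stood at 913, 883 and 907 CPM in the 3 DMSO libraries, 824, 825 and 835 with P-16, 633, 641 and 609.96 with 2-77, 689.97, 699 and 691 with ENZA, 381, 402 and 425 with BD98 and 444, 445 and 432 with ACBI. No treated library reached the DMSO range, and those of BD98 were the lowest. Its change was -1.16 ± 0.036 with BD98 (adjusted p = 3.94e-21), -1.03 ± 0.036 with ACBI (7.05e-21), -0.52 ± 0.036 with 2-77 (7.21e-13), -0.38 ± 0.036 with ENZA (7.84e-10) and -0.12 ± 0.036 with P-16 (0.0127). The call for P-16 was lost when DMSO replicate 1 or 3 was left out (adjusted p = 0.0526 and 0.0509). ATF4 lies on chromosome 22 from 39520559 to 39522686 (hg38, plus strand).

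ATF3, a stress-induced repressor of the same bZIP class, parted from ATF4. ATF3 stood at 73.98, 73.4 and 75.8 CPM in the 3 DMSO libraries, 76.4, 75.3 and 74.6 with P-16, 74.3, 76.6 and 67.2 with 2-77, 44.7, 44.1 and 43.7 with ENZA, 18.8, 18.2 and 21.9 with BD98 and 67.6, 73.8 and 75.9 with ACBI. The libraries of BD98 and ENZA lay below all others, and those of 2-77, ACBI and P-16 overlapped DMSO. ATF3 fell 3.75-fold with BD98 (-1.91 ± 0.063, adjusted p = 1.52e-20) and 1.68-fold with ENZA (-0.75 ± 0.058, adjusted p = 8.48e-12). It was not called with ACBI (-0.040 ± 0.056, 95% interval -0.15 to 0.074), 2-77 (-0.034 ± 0.056, interval -0.15 to 0.080) or P-16 (0.020 ± 0.056, interval -0.095 to 0.14). Its gene spans chromosome 1 from 212565334 to 212620777.

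DDIT3, which encodes the factor CHOP of terminal stress, fell with 4 of the 5 compounds. DDIT3 stood at 103, 95.8 and 101 CPM in the 3 DMSO libraries, 100.2, 98.4 and 106 with P-16, 83.8, 81.9 and 82.8 with 2-77, 60.97, 57.6 and 58.01 with ENZA, 23.4, 23.3 and 24.5 with BD98 and 49.1, 44.9 and 43.2 with ACBI. BD98 gave the lowest libraries, ACBI and ENZA came next without overlap, and P-16 overlapped DMSO. DDIT3 fell with BD98 (-2.07 ± 0.053), ACBI (-1.12 ± 0.049), ENZA (-0.76 ± 0.048) and 2-77 (-0.27 ± 0.047), with a highest adjusted p of 3.13e-05, and stood at 0.026 ± 0.047 with P-16. DDIT3 overlaps MARS1 on the other strand, and whether the authors' counting used strand is not given in the sources used here. MARS1 fell with ACBI (-0.67 ± 0.037) and BD98 (-0.78 ± 0.038), less than DDIT3 in each. With 2-77 its mean was lower in greater proportion than that of DDIT3. MARS1 went from 252 CPM in DMSO to 200 with 2-77, and DDIT3 from 99.8 to 82.8. With ENZA the means were 218 and 58.9 CPM. The part of MARS1 in the DDIT3 values was not tested.

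The dimer partners CEBPB and CEBPG fell with all 5 compounds, CEBPB by 1.74 with BD98 and 0.32 with P-16 on the log2 scale, CEBPG by 1.35 with ACBI and 0.23 with P-16. ATF5, a relative of ATF4 that is also under translational control, fell by 1.03 with ACBI and by 0.44, 0.40 and 0.37 with BD98, 2-77 and ENZA. NUP62 overlaps ATF5 on the other strand. The mean of NUP62 was 140 CPM in DMSO, 100 with ACBI, 146 with BD98, 124 with 2-77, 123 with ENZA and 135 with P-16. Its part in the ATF5 values was not tested. JDP2, a repressor of AP-1 sites, went from 38.6, 37.3 and 37.6 CPM in DMSO to 9.21, 7.22 and 8.66 with ACBI (-2.17 ± 0.082) and 13.8, 15.6 and 15.8 with BD98 (-1.33 ± 0.076). With both of these compounds every JDP2 library was below every DMSO library. NUPR1, a small stress-induced chromatin protein, moved in both directions. NUPR1 stood at 364, 361 and 356 CPM in the 3 DMSO libraries, 441, 468 and 459 with P-16, 316, 326 and 321 with 2-77, 311, 295 and 280.1 with ENZA, 140.01, 144 and 145 with BD98 and 109, 106 and 102 with ACBI. NUPR1 was the member with the smallest p among those that rose with P-16 (0.34 ± 0.037, adjusted p = 3.71e-08), where the 3 libraries were above all others, and it fell with ACBI (-1.77 ± 0.039), BD98 (-1.34 ± 0.039), ENZA (-0.29 ± 0.038) and 2-77 (-0.17 ± 0.038). EIF3C and EIF3CL overlap NUPR1 on the same strand in the deposited coordinates, so reads near it may be shared.

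**Figure D2:**
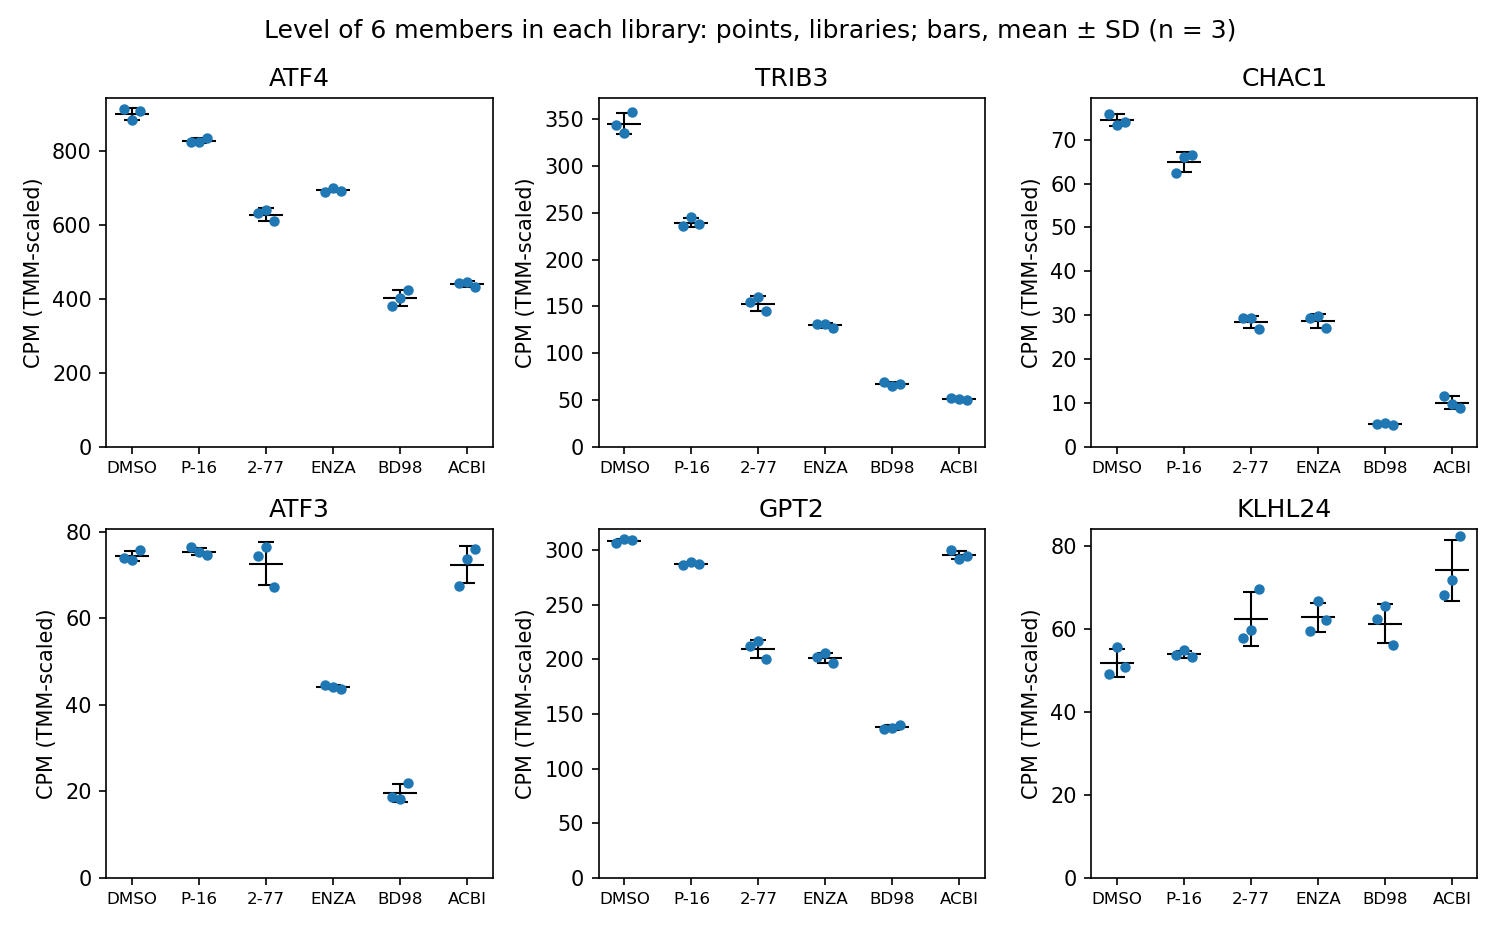
CPM of ATF4, TRIB3, CHAC1, ATF3, GPT2 and KLHL24 in every library, by group on the horizontal axis; points are libraries, bars the mean and SD of 3, and each vertical axis starts at 0. ATF4, TRIB3 and CHAC1 step down from DMSO to BD98 and ACBI, ATF3 is low with ENZA and BD98, GPT2 with ACBI lies near its DMSO level, and KLHL24 has its highest library with ACBI.

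Of the genes of feedback and growth control, TRIB3 moved most. TRIB3 encodes a pseudokinase that binds ATF4 and damps its activity. TRIB3 stood at 344, 335 and 357 CPM in the 3 DMSO libraries, 236, 245 and 238 with P-16, 155, 160.1 and 145 with 2-77, 131, 131 and 127 with ENZA, 69.1, 65.2 and 66.8 with BD98 and 52.1, 50.5 and 49.8 with ACBI. No pair among the 6 groups overlapped. TRIB3 fell 6.80-fold with ACBI (-2.77 ± 0.042, adjusted p = 1.17e-29), 5.15-fold with BD98 (-2.37 ± 0.041, 7.15e-27), 2.67-fold with ENZA (-1.41 ± 0.039, 1.88e-22), 2.26-fold with 2-77 (-1.17 ± 0.039, 1.38e-20) and 1.44-fold with P-16 (-0.53 ± 0.038, 5.57e-12). It had the smallest adjusted p of the members that fell in 4 of these 5 comparisons, with ACBI as the exception and SLC1A5 level with it for BD98. TRIB3 lies on chromosome 20 from 380629 to 397559.

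DDIT4 and SESN2, which restrain the growth kinase complex mTORC1, fell together with ACBI (-1.99 ± 0.035 and -0.90 ± 0.052) and BD98 (-1.28 ± 0.034 and -1.23 ± 0.053). DDIT4 stood at 609, 593 and 608 CPM in the 3 DMSO libraries, 654, 653 and 670.4 with P-16, 527, 519 and 506 with 2-77, 482, 496 and 497 with ENZA, 245, 248 and 253 with BD98 and 156, 153 and 147 with ACBI. P-16 libraries of DDIT4 were above those of DMSO (0.13 ± 0.033, adjusted p = 0.00554), a call lost with library totals in place of TMM factors (adjusted p = 0.0559). EIF4EBP1, which represses cap-dependent translation, fell by 2.24 with ACBI, 1.19 with BD98, 0.65 with 2-77 and 0.51 with ENZA. PPP1R15A and PPP1R15B direct a phosphatase to eIF2 and so end the response. PPP1R15A, at 7.13 to 11.1 CPM over the 18 libraries, was called with ACBI alone (-0.37 ± 0.1, adjusted p = 0.00227). PPP1R15B, which is made without stress, fell by 0.59 with ACBI and by 0.13 to 0.29 with the others. Its call was lost with P-16 without DMSO replicate 2 or 3 or P-16 replicate 3 (adjusted p up to 0.158), and with 2-77 without 2-77 replicate 2 (adjusted p = 0.0562).

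All 8 amino acid transporters fell with 2-77, ACBI, BD98 and ENZA, and 6 of 8 with P-16. Of these 6, SLC3A2 lost its call with library totals (adjusted p = 0.0627) and on leaving out any library compared other than DMSO replicate 2 (adjusted p up to 0.122), and SLC6A9 without P-16 replicate 1 (adjusted p = 0.05004). SLC1A5 carries glutamine into the cell. SLC1A5 stood at 271, 273 and 293 CPM in the 3 DMSO libraries, 223, 225 and 227 with P-16, 147, 153 and 148 with 2-77, 163, 162 and 163 with ENZA, 50.8, 51.6 and 51.98 with BD98 and 45.3, 45.2 and 40.2 with ACBI. Libraries of BD98 and ACBI were far below the rest, and P-16 was between DMSO and the others. SLC1A5 changed by -2.68 ± 0.043 with ACBI (adjusted p = 5.93e-29), -2.44 ± 0.043 with BD98 (7.15e-27), -0.91 ± 0.04 with 2-77 (1.56e-17), -0.78 ± 0.04 with ENZA (5.24e-16) and -0.31 ± 0.039 with P-16 (4.7e-07). The gene lies on chromosome 19 from 46774883 to 46788594.

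SLC7A5 exchanges large neutral amino acids such as leucine, in a pair with the heavy chain SLC3A2. SLC7A5 stood at 30.96, 33.98 and 34.1 CPM in the 3 DMSO libraries, 31.4, 32.02 and 33.3 with P-16, 24.6, 25.7 and 22.7 with 2-77, 29.4, 26.9 and 25.9 with ENZA, 4.98, 4.16 and 5.69 with BD98 and 2.33, 2.61 and 2.03 with ACBI. ACBI and BD98 took it to its lowest levels, while P-16 overlapped DMSO. SLC7A5 fell 14.2-fold with ACBI (-3.83 ± 0.1, adjusted p = 1.44e-23) and 6.56-fold with BD98 (-2.71 ± 0.093, 3.16e-20), against -0.44 ± 0.075 with 2-77 and -0.27 ± 0.074 with ENZA. Its pseudogene SLC7A5P2 was listed at 3.26 CPM in DMSO, 2.55 with ACBI and 1.60 with BD98 (means of 3), so the copy's level was nearest to that of SLC7A5, or above it, where SLC7A5 was low. SLC3A2 fell by 1.71 with ACBI and 1.26 with BD98, less than its partner in each.

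SLC7A11 pairs with the same heavy chain and imports cystine for glutathione. SLC7A11 stood at 246, 282 and 253 CPM in the 3 DMSO libraries, 214, 218 and 215 with P-16, 113, 110.2 and 136 with 2-77, 142, 142 and 145 with ENZA, 50.6, 45.4 and 39.8 with BD98 and 95.8, 96.3 and 122 with ACBI. Here BD98 was lowest, and ACBI overlapped 2-77 through ACBI replicate 3 alone, the library rich in ribosomal RNA. ACBI replicates 1 and 2 lay below all 2-77 libraries. The change was -2.53 ± 0.11 with BD98, -1.32 ± 0.11 with ACBI, -1.12 ± 0.1 with 2-77 and -0.86 ± 0.1 with ENZA, with a highest adjusted p of 1.59e-05, and -0.27 ± 0.1 with P-16 (not called, adjusted p = 0.0738; 0.0244 with library totals, 4.76e-06 when these 2 groups were fitted alone). The antisense gene SLC7A11-AS1 was listed at 1.64 CPM or less on average in every group.

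SLC7A1, which carries arginine and lysine, was among the 3 members with the smallest p that fell with P-16. SLC7A1 stood at 381, 381 and 396 CPM in the 3 DMSO libraries, 314, 314 and 331 with P-16, 255, 246 and 253 with 2-77, 259, 255 and 263 with ENZA, 183, 187 and 192 with BD98 and 181, 177 and 172 with ACBI. Its P-16 libraries lay below DMSO and above every other group (-0.27 ± 0.035, adjusted p = 5.85e-07). The glycine transporter SLC6A9 fell by 2.20 with BD98, 2.18 with ACBI and 1.17 with 2-77, and the alanine, serine and cysteine carrier SLC1A4 by 2.03 with ACBI and 1.59 with BD98. SLC38A2, a carrier of small neutral amino acids, fell by 0.94 with BD98 and by 0.27 to 0.40 with the other 4.

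All 7 metabolic enzymes fell with 2-77 and ENZA, 6 with ACBI, 6 with BD98 and 5 with P-16. CHAC1 breaks down glutathione and is a known ATF4 target. CHAC1 stood at 75.95, 73.4 and 73.99 CPM in the 3 DMSO libraries, 62.3, 66.1 and 66.4 with P-16, 29.2, 29.3 and 26.9 with 2-77, 29.3, 29.9 and 26.96 with ENZA, 5.11, 5.36 and 4.92 with BD98 and 11.7, 9.66 and 8.87 with ACBI. BD98 gave the lowest 3 libraries, ACBI the next 3, and 2-77 and ENZA overlapped. CHAC1 fell 14.6-fold with BD98 (-3.87 ± 0.081, adjusted p = 1.73e-25), 7.38-fold with ACBI (-2.88 ± 0.072, 1.57e-24), 2.61-fold with 2-77 (-1.39 ± 0.063, 4.1e-17) and 2.59-fold with ENZA (-1.37 ± 0.063, 5.57e-17). With P-16 it changed by -0.20 ± 0.06 (adjusted p = 0.0155), a call lost without DMSO replicate 1 or P-16 replicate 1 (adjusted p = 0.0649 and 0.0934). CHAC1 lies on chromosome 15 from 40953471 to 40956512.

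PCK2 makes phosphoenolpyruvate in mitochondria. PCK2 stood at 438, 415 and 422 CPM in the 3 DMSO libraries, 357, 369 and 349 with P-16, 229.9, 234 and 224 with 2-77, 251, 259 and 256 with ENZA, 106, 111 and 106 with BD98 and 97.5, 91.9 and 88.3 with ACBI. Each group lay apart from DMSO, with 2-77 below ENZA. PCK2 fell with ACBI (-2.20 ± 0.039), BD98 (-1.98 ± 0.039), 2-77 (-0.89 ± 0.037), ENZA (-0.74 ± 0.037) and P-16 (-0.25 ± 0.037), with a highest adjusted p of 7.71e-06. ASNS, which makes asparagine and whose promoter core is printed above, fell to a like extent with ACBI (-1.99 ± 0.037) and BD98 (-1.89 ± 0.037), from 284 ± 4.29 CPM in DMSO to 71.3 ± 1.93 and 76.9 ± 1.30 (mean ± SD, n = 3). The readthrough gene CZ1P-ASNS and the pseudogene ASNSP1 overlap or copy it and were listed at 10.9 and 4.39 CPM or less on average in every group.

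GPT2, a mitochondrial alanine transaminase, is the enzyme in which ACBI and BD98 parted most. GPT2 stood at 307, 310.1 and 309 CPM in the 3 DMSO libraries, 287, 289.5 and 287 with P-16, 212, 217 and 201 with 2-77, 202, 206 and 196 with ENZA, 136, 137 and 140.3 with BD98 and 299.99, 292 and 295 with ACBI. ACBI libraries lay near those of DMSO and above P-16, and BD98 gave the lowest. GPT2 fell with BD98 (-1.16 ± 0.035, adjusted p = 1.17e-21), ENZA (-0.62 ± 0.034) and 2-77 (-0.56 ± 0.034). With ACBI the change was -0.063 ± 0.034 (95% interval -0.13 to 0.006, adjusted p = 0.0934; -0.10 and 0.026 with library totals). With P-16 it was -0.10 ± 0.034 (adjusted p = 0.0268), a call lost on leaving out any of the 6 libraries compared (adjusted p up to 0.0889) and without the filter (0.0681).

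The proline enzymes PYCR1 and ALDH18A1 act in sequence. PYCR1 fell with ACBI (-1.73 ± 0.062), BD98 (-1.03 ± 0.061), 2-77 (-0.57 ± 0.06) and ENZA (-0.44 ± 0.06), whereas ALDH18A1 fell by 0.52 with ACBI and stood at -0.044 ± 0.038 with BD98 (95% interval -0.12 to 0.035; 0.020 with library totals). CTH, which makes cysteine from cystathionine, fell by 1.53 with BD98, 0.91 with 2-77, 0.89 with ENZA, 0.73 with ACBI and 0.58 with P-16. With P-16 the CTH value was the greatest fall of any member.

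STC2 encodes a secreted glycoprotein of the stanniocalcin family. STC2 stood at 318, 313 and 312 CPM in the 3 DMSO libraries, 263, 256 and 271 with P-16, 196, 196 and 198 with 2-77, 171, 176 and 173 with ENZA, 80.05, 87.4 and 82.2 with BD98 and 33.5, 32.8 and 34.7 with ACBI. The ACBI libraries were lowest and the BD98 libraries next, with no overlap between any of the 6 groups. STC2 had the smallest adjusted p of the members with ACBI (9.33-fold lower, -3.22 ± 0.04, 9.51e-32), and changed by -1.92 ± 0.037 with BD98 (adjusted p = 2.8e-26), -0.86 ± 0.035 with ENZA (2.55e-18), -0.68 ± 0.035 with 2-77 and -0.26 ± 0.035 with P-16. It lies on chromosome 5 from 173314723 to 173329503. ADM2, a peptide hormone of the adrenomedullin family, fell by 2.11, 1.77, 0.99, 0.76 and 0.30 with ACBI, BD98, 2-77, ENZA and P-16. XPOT, which exports tRNA from the nucleus, fell by 0.91 with BD98 and 0.55 with ACBI.

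VLDLR and KLHL24 did not follow the rest. VLDLR is a lipoprotein receptor. VLDLR stood at 23.6, 23.4 and 25.5 CPM in the 3 DMSO libraries, 29.8, 28.6 and 30.6 with P-16, 27.6, 25.04 and 26.8 with 2-77, 22.97, 22.7 and 24.8 with ENZA, 20.2, 18.3 and 18.6 with BD98 and 15.5, 16.3 and 15.3 with ACBI. P-16 libraries were the highest and ACBI libraries the lowest. VLDLR rose with P-16 (0.29 ± 0.066, adjusted p = 0.00135) and fell with ACBI (-0.62 ± 0.07) and BD98 (-0.35 ± 0.069). KLHL24, an adaptor of a ubiquitin ligase, was the single member that rose with 2-77, ACBI, BD98 and ENZA. KLHL24 stood at 49.1, 55.7 and 50.9 CPM in the 3 DMSO libraries, 53.7, 54.9 and 53.3 with P-16, 57.8, 59.7 and 69.8 with 2-77, 59.7, 66.7 and 62.3 with ENZA, 62.5, 65.5 and 56.1 with BD98 and 68.3, 71.9 and 82.4 with ACBI. All ACBI libraries were above DMSO, as were those of the other 3, and P-16 lay within the DMSO range. KLHL24 rose with ACBI (0.51 ± 0.077, adjusted p = 3.78e-06), ENZA (0.28 ± 0.078, 0.00686), 2-77 (0.26 ± 0.078, 0.00917) and BD98 (0.24 ± 0.078, 0.0166). The call for 2-77 was lost without 2-77 replicate 3 (adjusted p = 0.054), and that for BD98 without DMSO replicate 1 or 3 or BD98 replicate 1 or 2 (adjusted p up to 0.1).

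The members whose promoter windows held the core and those whose windows did not were set side by side. The 10 with the core had a median of -1.85 with ACBI, -1.46 with BD98, -0.55 with 2-77, -0.59 with ENZA and -0.21 with P-16. For the 19 without it the medians were -1.03, -1.28, -0.44, -0.38 and -0.12. ATF3, with a core that reads TGATGGAA, and ASNS, with TGATGAAA, lay at -0.040 and -1.99 with ACBI, so values within the group that carries it spread widely. With ACBI the members with the core ran from -2.88 to -0.040 and those without it from -3.83 to 0.51. The difference between the medians was not tested.

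ACBI and BD98 gave similar medians, but in a direct contrast of the groups single members differed in both directions. Doses differ between compounds, 0.2 µM against 2 µM, and each such contrast is also one of doses. Of 34 members 11 were higher and 19 lower with ACBI, where 69.6% of all genes were called (33.4% higher and 36.2% lower). The count of members higher was thus near the background. Those higher with ACBI were led by ATF3 (1.87 ± 0.063, adjusted p = 2.4e-21), SLC7A11 (1.21 ± 0.11), GPT2 (1.10 ± 0.035, 4.54e-22), CHAC1 (0.98 ± 0.098), DDIT3 (0.94 ± 0.055) and CTH (0.80 ± 0.095). Those lower with ACBI were led by STC2 (-1.30 ± 0.04, adjusted p = 2.37e-22), SLC7A5 (-1.12 ± 0.13), EIF4EBP1 (-1.05 ± 0.064), JDP2 (-0.85 ± 0.088) and DDIT4 (-0.71 ± 0.034). For 4 members no difference was called: SLC6A9 (0.024 ± 0.083, 95% interval -0.15 to 0.19), CEBPG (interval -0.14 to 0.055), CEBPB (interval -0.004 to 0.30) and PPP1R15A (interval -0.39 to 0.027). Without ACBI replicate 3 the counts were 11 higher and 17 lower, where 67.2% of all genes were called.

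**Figure D3:**
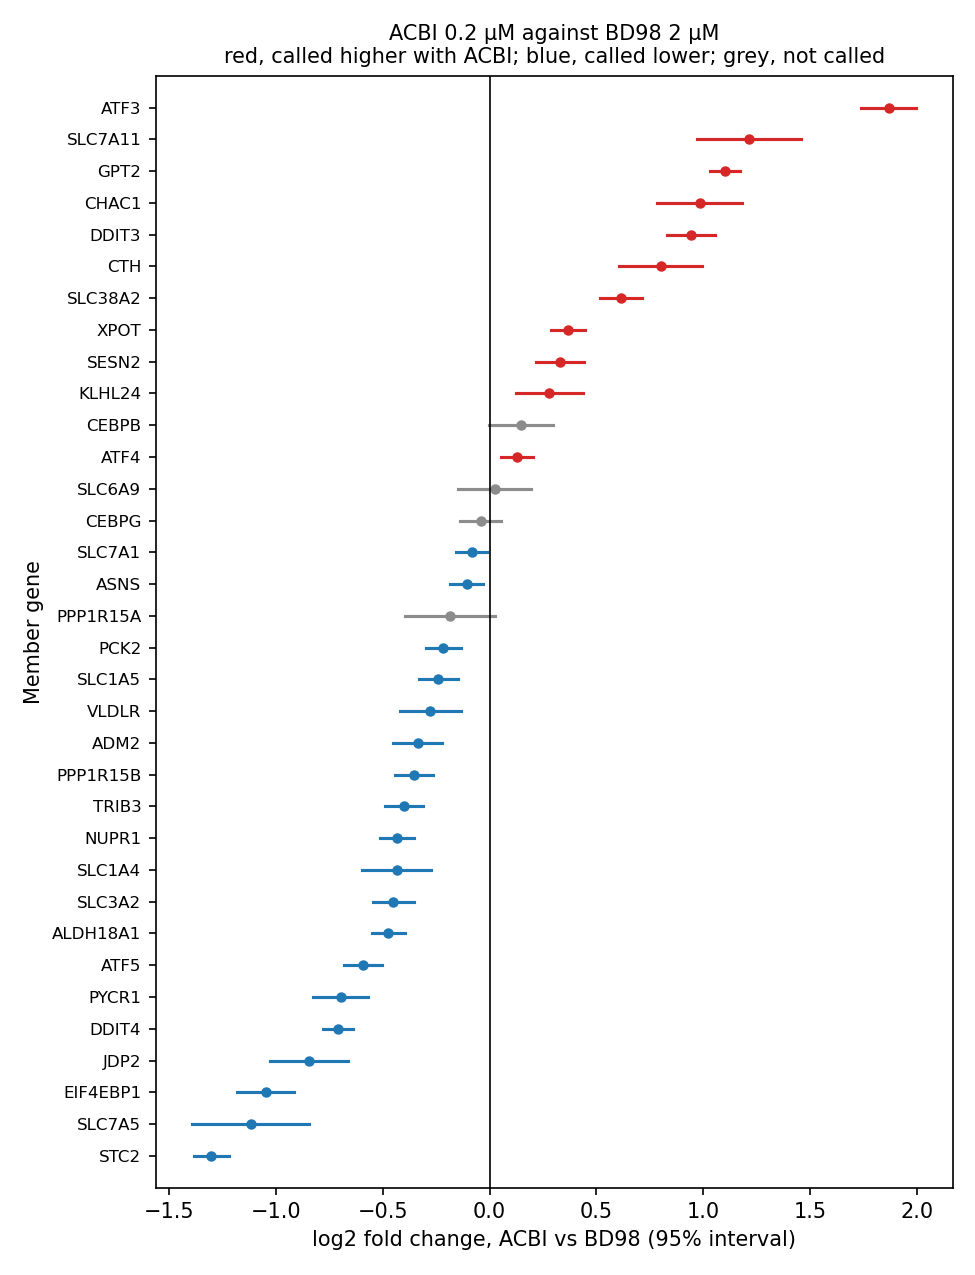
Log2 fold change of each member between ACBI (0.2 µM) and BD98 (2 µM), sorted, with its 95% interval (lines) from the fit of 18 libraries; red is called higher with ACBI, blue called lower and grey not called. ATF3 lies farthest to the right at 1.87 and STC2 farthest to the left at -1.30.

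The median member differed little between 2-77 and ENZA (-0.006), but single members differed in both directions. In the direct contrast (1 µM against 10 µM) 6 members were higher and 4 lower with 2-77, where 5.54% of all genes were called (2.94% higher and 2.6% lower), and 24 were not called. The 10 are 29.4% of the members. ATF3 (0.72 ± 0.057, adjusted p = 1.94e-10) and DDIT3 (0.49 ± 0.048, 1.25e-08) differed most. TRIB3 (0.24 ± 0.039), CEBPB (0.24 ± 0.067), STC2 (0.18 ± 0.035) and PPP1R15B (0.15 ± 0.043) were also higher with 2-77, and SLC6A9 (-0.34 ± 0.067), ADM2 (-0.23 ± 0.05), PCK2 (-0.15 ± 0.037) and ATF4 (-0.14 ± 0.036) were lower, with a highest adjusted p of 0.0346. For CHAC1 the difference was -0.015 ± 0.066 (95% interval -0.15 to 0.12) and for ASNS 0.014 ± 0.035 (interval -0.057 to 0.085), neither called. The number lower went from 4 to 2 without ENZA replicate 2 or with library totals and to 7 when these 2 groups were fitted alone, and the number higher from 6 to 4 without 2-77 replicate 1. Leaving out single libraries gave 7 to 9 members called in all, and over all genes the count went from 855 to 499, 560 or 555 without 2-77 replicate 1, 2-77 replicate 2 or ENZA replicate 1.

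The remaining direct contrasts placed P-16 above and BD98 and ACBI below. Against ENZA at the same 10 µM, 31 members were higher and 1 lower with P-16, where 21.4% of all genes were called (11% higher and 10.3% lower), led by CHAC1 (1.17 ± 0.063, adjusted p = 1.16e-14) and TRIB3 (0.89 ± 0.039, 1.18e-16), and KLHL24 was lower (-0.22 ± 0.077, 0.0419). The KLHL24 call was lost with RLE factors and on leaving out P-16 replicate 1, 2 or 3 or ENZA replicate 2 or 3, where 0 members were called lower. With 2-77 28 members were lower than with P-16 and 0 higher, against 22.4% of all genes (11.8% lower and 10.6% higher). BD98 gave 32 lower and 0 higher than P-16 (43.6% of all genes, 22.2% higher and 21.4% lower), 29 lower and 1 higher than ENZA (42.5%, 21.7% higher and 20.8% lower), and 30 members were higher and 1 lower with 2-77 than with BD98 (42%, 20.7% higher and 21.3% lower). ALDH18A1 was the exception in the last pair (-0.20 ± 0.038 for 2-77 against BD98 and 0.21 ± 0.038 for BD98 against ENZA). With library totals BD98 gave 30 lower and 2 higher than P-16, and 29 lower and 2 higher than ENZA. In the same setting 2-77 gave 28 lower and 1 higher than P-16. ACBI gave 29 lower and 1 higher than P-16 (71.5% of all genes, 35% higher and 36.5% lower), and 29 lower and 3 higher than ENZA (70.1%, 33.3% higher and 36.7% lower), the 3 being GPT2, ATF3 and KLHL24. Against 2-77, 28 members were lower and 2, GPT2 and KLHL24, higher with ACBI (70.2%, 33.4% higher and 36.8% lower with ACBI). Without ACBI replicate 3 the counts were 30 lower and 1 higher than P-16, 29 lower and 2 higher than ENZA, and 29 lower and 2 higher than 2-77.

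Other genes of the pathway were followed in 4 lists. Of the enzymes of serine synthesis and one-carbon metabolism, which ATF4 also induces, 6 of 7 fell with 2-77 and ACBI, 7 of 7 with BD98 and ENZA and 3 of 7 with P-16, with 0 rises. Their medians were -0.48, -1.78, -1.21, -0.49 and -0.17 with 2-77, ACBI, BD98, ENZA and P-16. Set against the share of all genes called, theirs was 85.7% against 40.7% with 2-77, 85.7% against 72% with ACBI, 100% against 49% with BD98, 100% against 36.3% with ENZA and 42.9% against 24% with P-16. MTHFD2, of mitochondrial folate metabolism, fell by 2.36 with ACBI, 1.67 with BD98, 0.92 with 2-77, 0.91 with ENZA and 0.48 with P-16, and PSAT1, of serine synthesis, by 2.17 with BD98. PHGDH, which opens that pathway, fell by 2.06 with ACBI.

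Of the aminoacyl-tRNA synthetases, which load amino acids onto tRNA, 12 of 12 fell with ACBI and BD98, 10 with 2-77, 9 with ENZA and 5 with P-16, with 0 rises and medians of -0.87, -0.82, -0.34, -0.25 and -0.086. In the same terms the share called was 83.3% against 40.7% with 2-77, 100% against 72% with ACBI, 100% against 49% with BD98, 75% against 36.3% with ENZA and 41.7% against 24% with P-16. GARS1, for glycine, fell by 1.53 with ACBI, 1.37 with BD98 and 0.55 with 2-77. IARS1 fell by 1.28 with ACBI and SARS1 by 1.20 with BD98. WARS1, for tryptophan, fell by 0.64 with 2-77, 0.55 with ENZA and 0.29 with P-16, where SARS1 fell by 0.45 and 0.17 with the last 2.

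The other arms of the unfolded protein response, which run through ERN1, XBP1 and ATF6 to chaperones of the endoplasmic reticulum, had medians nearer to 0. Of 16 genes 13 fell and 2 rose with 2-77, 11 fell and 1 rose with ACBI, 12 and 1 with BD98, 8 and 2 with ENZA and 7 and 2 with P-16, with medians of -0.27, -0.43, -0.23, -0.14 and -0.003. The share of these genes called, set against that of all genes, was 93.8% against 40.7% with 2-77, 75% against 72% with ACBI, 81.2% against 49% with BD98, 62.5% against 36.3% with ENZA and 56.2% against 24% with P-16, so the count with ACBI was near the background. The sensor ERN1 fell by 1.13 with BD98, 0.68 with ENZA and 0.24 with P-16, and XBP1, whose mRNA it splices, by 1.43 with ACBI, 0.81 with BD98, 0.46 with 2-77 and 0.43 with ENZA. HERPUD1, of protein disposal, fell by 0.57 with 2-77 and the chaperone HSP90B1 by 1.07 with ACBI. HSPA5, the chaperone BiP, rose with P-16 (0.25 ± 0.033), 2-77 (0.12 ± 0.033) and ENZA (0.11 ± 0.033) and fell with ACBI (-0.52 ± 0.033) and BD98 (-0.14 ± 0.033).

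Upstream of ATF4, the kinases, their regulators and the eIF2 and eIF2B subunits had medians near 0. Of 14 genes 3 fell and 1 rose with 2-77, 6 and 6 with ACBI, 6 and 4 with BD98, 3 and 2 with ENZA and 3 and 0 with P-16. All 5 medians lay between -0.08 and 0.01. The share called, against that of all genes, was 28.6% against 40.7% with 2-77, 85.7% against 72% with ACBI, 71.4% against 49% with BD98, 35.7% against 36.3% with ENZA and 21.4% against 24% with P-16, so the counts with P-16 and ENZA were near the background and that with 2-77 was below it. EIF2AK3, the gene of PERK, fell with ACBI (-0.85 ± 0.049) and rose with ENZA (0.20 ± 0.047). EIF2B1, a subunit of the exchange factor that phosphorylated eIF2 blocks, rose with ACBI (0.63 ± 0.044). EIF2S1, the subunit that the kinases phosphorylate, fell by 0.31 with BD98, 0.20 with P-16 and 0.18 with ENZA. IMPACT, an inhibitor of GCN2, fell by 0.40 with BD98, 0.28 with 2-77 and 0.26 with P-16, and OMA1, the protease of the mitochondrial stress relay, by 0.33 with 2-77. Over all changes named from the 4 lists the highest adjusted p was 0.00982 (HSPA5 with ENZA). Phosphorylation of eIF2 and ATF4 protein were not measured.

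**Figure D4:**
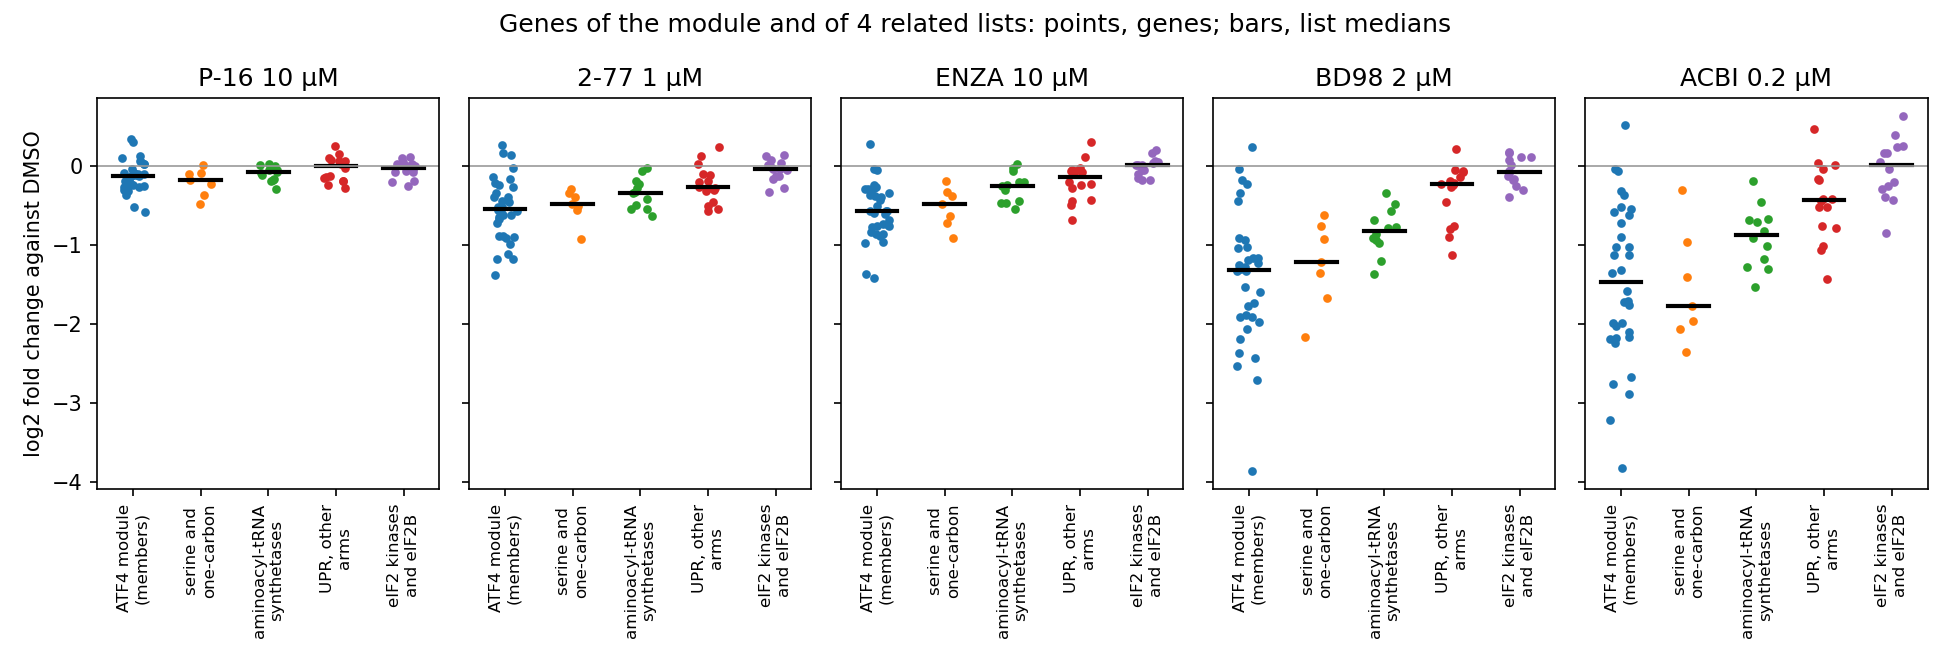
Log2 fold change against DMSO of the genes of the ATF4 module and of 4 related lists (points, 1 per gene; black bars, medians) in 1 panel per compound and dose. Most module, serine and synthetase genes lie below 0 in the panels of BD98 and ACBI, while eIF2 kinases and eIF2B lie around 0 in all 5.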

How the data were processed

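The authors deposited expected counts (estimated counts of reads per gene, not normalized) as 1 table of 18 libraries, made from aligned reads per the submitters' processing notes. Per the labels' protocols the libraries were made with a stranded kit for polyadenylated RNA, and per the submitters' processing notes STAR, Partek and DESeq2 were used with hg38. Versions, the counting program, its annotation and its use of strand are not given in the sources used here. Columns named SCO277 and PB_16 were taken as 2-77 and P-16.

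Counts were rounded to whole numbers. Genes were kept with edgeR's filterByExpr over the 6 groups (15422 of 20145), scaled with TMM factors and fitted over all 18 libraries (12 residual degrees of freedom) with the quasi-likelihood F test of edgeR 4.0.16 in R 4.3.3. Each of 15 contrasts was adjusted by Benjamini-Hochberg over all tested genes, with a threshold of 0.05. The procedure was tested on simulated data. Full values were given for ATF4 and for the 3 members with the smallest adjusted p in each direction against DMSO. ATF3, DDIT3, SLC7A11, SLC7A5 and GPT2 were added after their values were seen. In the related lists the 2 genes with the smallest p in each comparison were named, and HSPA5 was also described across compounds after its values were seen. Members and lists were chosen with earlier results of these data known. Alternatives were DESeq2 1.42.0, other scalings and filters, fits of 2 groups, a replicate block, removal of ribosomal RNA genes and leaving out each library. Of 45 same-number pairs of libraries 3 correlated above 0.1 in their deviations from the group means, and these were the 3 pairs of 2-77 and ACBI (0.113, 0.123 and 0.326). The lowest of the 45 was -0.144 (2-77 replicate 3 and BD98 replicate 3), and pairs of unlike number were not examined. The pair at 0.326 was replicate 3 of 2-77 and of ACBI, with 2.09% and 8.6% of counts in ribosomal RNA genes. Whether that share underlies the correlation was not tested. The labels do not state a pairing, and the fit reported used none. The replicate block was an alternative only, put into all 15 contrasts.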

Additional observations from a re-analysis of the deposited data

How the results depend on the processing

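The number of members called moved by less than 1.5 times under every alternative in all 15 contrasts. With library totals in place of TMM factors the member median for BD98 against DMSO was -1.26 (-1.32 with TMM). Leaving out single libraries gave member medians of -0.59 to -0.57 for ENZA, -0.55 to -0.53 for 2-77, -1.52 to -1.43 for ACBI, -1.34 to -1.29 for BD98 and -0.14 to -0.13 for P-16, and the members called with P-16 went from 23 to between 18 and 20. Values that changed sign were not called in the fit reported: ALDH18A1 with BD98 was 0.020 with library totals, and, on leaving out single libraries, ATF3 ran from -0.071 to 0.021 with 2-77 (the latter without 2-77 replicate 3) and from -0.067 to 0.012 with ACBI (the latter without ACBI replicate 1), and DDIT3 with P-16 from -0.0057 (without P-16 replicate 3; -0.0014 without DMSO replicate 2) to 0.048. The cause was not tested. Calls against DMSO were lost under some alternative for 9 members with P-16 (ATF4, CHAC1, DDIT4, GPT2, PPP1R15B, SESN2, SLC3A2, SLC6A9 and XPOT), for KLHL24 and PPP1R15B with 2-77 and for KLHL24 with BD98. Of the direct contrasts, that of P-16 with ENZA lost its 1 lower member, KLHL24. The number of members higher than with P-16 went from 0 to at most 2 for BD98 and at most 1 for 2-77. With the replicate number as a block, 31 members were called with 2-77, 32 with ACBI, BD98 and ENZA, 23 with P-16 and 9 between 2-77 and ENZA. For 2-77 against ACBI, whose same-number libraries correlated above 0.1, the block gave 28 members higher and 2 lower, the counts without it. Library totals moved the share of all calls that were higher from 50.05% to 61.8% for BD98 against DMSO, 49.3% to 38.1% for 2-77 against BD98, 47.3% to 60.5% for 2-77 against P-16, 51.0% to 63.2% for BD98 against ENZA, 50.9% to 66.5% for BD98 against P-16 and 51.6% to 41.5% for P-16 against ENZA. They moved the median of all genes for ACBI against BD98 from -0.022 to -0.126.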
